A study of Mus musculus with 12 samples.

Results

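Cultured tumor cells of the mouse pancreas were set against freshly isolated embryonic acinar cells, as 2 kinds of pancreatic cells in which the genes of the cell cycle are active. The comparison used 6 of the 12 arrays of the series, namely the 3 titled tumor cells and the 3 titled embryonic acinar cells, and took in 22180 genes. Each gene was read from the probe set that carries its symbol alone, and where a gene had more than 1 of them, from the brightest by its average across the 12 arrays. Biotin-labelled total RNA was hybridised to Affymetrix arrays, and the values are log2 signal per probe set.

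The tumor cells were of low passage and had been grown in standard medium. The embryonic acinar cells were released from tissue by collagen digestion and went straight to RNA extraction, without culture. All samples carry the label C57Bl6/J wildtype, and the labels name no driver mutation, transgene or tumor site for the tumor cells and no embryonic day for the embryonic cells. The descriptions of the 3 tumor samples share a code, so they may be cultures of 1 line, and whether a replicate was another animal, another culture or another extraction is not labelled. The p-values therefore measure the spread between these arrays, which may be technical, and culture and cell type cannot be told apart in this comparison. The other 6 arrays, from adult acinar cells and from cultures in acinar-to-ductal metaplasia, entered the estimate of the spread and the choice of probe set, and the adult arrays are given beside 1 gene, Mki67.

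Acinar cells make and secrete the digestive enzymes of the pancreas. Their identity rests on transcription factors such as PTF1A, NR5A2 and MIST1 (Bhlha15), which drive the enzyme genes and a large endoplasmic reticulum. Embryonic acinar cells still divide while they begin to make enzymes, whereas tumors of the exocrine pancreas have usually lost the enzymes, carry ductal keratins and depend on signalling from RAS through the MAPK cascade. Mitosis genes are switched on late in the cell cycle through CHR and CCAAT elements of their promoters, enzyme genes are bound by the PTF1 complex at an E-box paired with an RBPJ box, and targets of YAP are bound through TEAD factors.

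A promoter from each of those gene groups is shown as an example, with the matched letters in capitals on either strand. The 3 sequences are the 250 bases before the annotated start of the gene in RefSeq on build GRCm38.p6, all for genes on the minus strand, written 5′ to 3′ along the gene.
Cdk1, chr10:69352913-69353162, letters TTTGAA (CHR) and CCAAT in capitals: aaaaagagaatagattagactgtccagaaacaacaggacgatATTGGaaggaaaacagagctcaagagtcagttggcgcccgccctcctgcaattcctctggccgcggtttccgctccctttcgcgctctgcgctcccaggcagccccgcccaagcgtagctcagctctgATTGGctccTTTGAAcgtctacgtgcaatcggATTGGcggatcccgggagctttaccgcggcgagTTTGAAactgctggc
Cel, chr2:28563404-28563653, letters TTTCCCA (RBPJ box) and CACCTG (E-box) in capitals: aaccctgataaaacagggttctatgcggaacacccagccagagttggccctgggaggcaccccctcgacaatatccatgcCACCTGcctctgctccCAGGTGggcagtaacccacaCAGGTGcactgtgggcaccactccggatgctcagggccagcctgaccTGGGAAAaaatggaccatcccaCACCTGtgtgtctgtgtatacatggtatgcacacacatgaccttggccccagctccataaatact
Ankrd1, chr19:36119845-36120094, letters GGAATG (TEAD) in capitals: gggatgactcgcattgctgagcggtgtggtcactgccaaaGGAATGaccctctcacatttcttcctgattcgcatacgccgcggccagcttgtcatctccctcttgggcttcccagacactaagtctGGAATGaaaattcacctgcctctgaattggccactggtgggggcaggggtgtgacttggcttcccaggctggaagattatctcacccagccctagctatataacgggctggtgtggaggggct
The Cdk1 window held TTTGAA 2 times and CCAAT 3 times, the Cel window held CACCTG 4 times and TTTCCCA 1 time, and the Ankrd1 window held GGAATG 2 times. Over windows of the same length, TTTGAA was present in 42.1% of 19 promoters of mitosis genes and in 16.0% of all 32851 promoters, and CCAAT in 84.2% and 33.8% of the same promoters. TTTCCCA was found in 23.1% of 26 promoters of acinar enzyme genes against 6.82% of all, and CACCTG in 53.8% against 17.2%. GGAATG was in 50.0% of 14 promoters of YAP and TEAD targets against 12.6% of all. These matches describe letters and show no binding.

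The labels were first set against the genes that define each kind of cell. The carboxypeptidase gene Cpa1 stood at 4.36, 3.71 and 3.81 on the tumor arrays and at 12.87, 12.83 and 12.97 on the embryonic arrays, and the trypsinogen gene Prss1 at 4.15, 4.37 and 4.69 in tumor cells and 12.16, 11.67 and 11.09 in embryonic cells. Of the keratins of simple epithelia, Krt8 stood at 11.59, 11.55 and 11.69 in tumor cells against 9.83, 10.23 and 9.91 in embryonic cells. E-cadherin (Cdh1) averaged 10.06 ± 0.37 in tumor cells and 10.04 ± 0.15 in embryonic cells (SD, n = 3 each). The tumor arrays thus held keratins and E-cadherin of an epithelium. The epithelial adhesion molecule Epcam, by contrast, stood at 3.65, 3.84 and 3.98 there and at 8.50, 8.76 and 8.60 in embryonic cells. A background level of 3.62 was taken from 1390 olfactory and vomeronasal receptor genes, as the value that 95% of their group means do not exceed.

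Both groups carried the proliferation marker Mki67 above its level on the adult acinar arrays. It stood at 7.98, 8.64 and 9.27 in tumor cells and at 7.95, 8.31 and 7.93 in embryonic cells, and averaged 5.07 ± 0.34 on the 3 adult arrays (SD). The tumor and embryonic values of Mki67 overlapped, and their difference of 0.57 ± 0.31 did not pass the test (95% interval -0.11 to 1.25, adjusted p = 0.229). Differences throughout are tumor minus embryonic on the log2 scale, values after ± beside them are standard errors (SE) of the fit, and a gene was called at an adjusted p under 0.05 with a difference of at least 1 in size.

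The embryonic arrays also held genes of cells other than acinar cells. Of 19 fibroblast and stellate markers, 9 were above background in tumor cells and 19 in embryonic cells. Their summed linear signal was between 255 and 311 on the tumor arrays and between 8701 and 14614 on the embryonic arrays. Of 15 endocrine markers, 8 were above background in tumor cells and 15 in embryonic cells, with sums of 233 to 350 in tumor cells and 10604 to 13464 in embryonic cells. In such bulk RNA, fewer cells of a type and less RNA per cell cannot be told apart.

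The arrays of a group correlated at 0.968 to 0.987 over all genes among tumor arrays and at 0.979 to 0.984 among embryonic arrays, against 0.863 to 0.884 between the groups. Tumor replicate 1 stood apart from the other 2 tumor arrays. Of 8000 genes, 386 stood more than 1 log2 unit above the mean of the other 2, and 434 more than 1 unit below that mean. Tumor replicates 2 and 3, compared in the same way, each had at most 122 on either side. Among the genes set apart on tumor replicate 1, Fos stood at 8.18, 4.39 and 4.49 on the 3 tumor arrays, Cd53 at 10.31, 4.73 and 5.04, and Clca3b at 2.99, 9.80 and 10.32. The embryonic arrays differed among themselves in liver and gut genes. Albumin (Alb) stood at 4.76, 10.51 and 4.68 on them, and the median of 16 hepatic and intestinal genes at 3.79, 7.07 and 5.20.

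Over all genes, 1445 were called higher in tumor cells (6.51%) and 1729 lower (7.8%), 14.3% in either direction. The list counts below are to be read beside these shares. The 3 tumor arrays lay above all 3 embryonic arrays for 22.1% of genes and below them for 16.6%, 38.6% in all. The median difference over all genes was 0.07. The large differences were mostly losses: 116 called genes were 32-fold or more lower in tumor cells and 13 were 32-fold or more higher. For 713 of the genes called lower the tumor mean was at or under background, and for 142 of those called higher the embryonic mean was. Where that is so, a ratio against the background level is given as "at least", since the dimmer side has only a bound. Such bounds are for the brightest probe set and the values as deposited, and they can be smaller under an alternative.

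**Figure D1:**
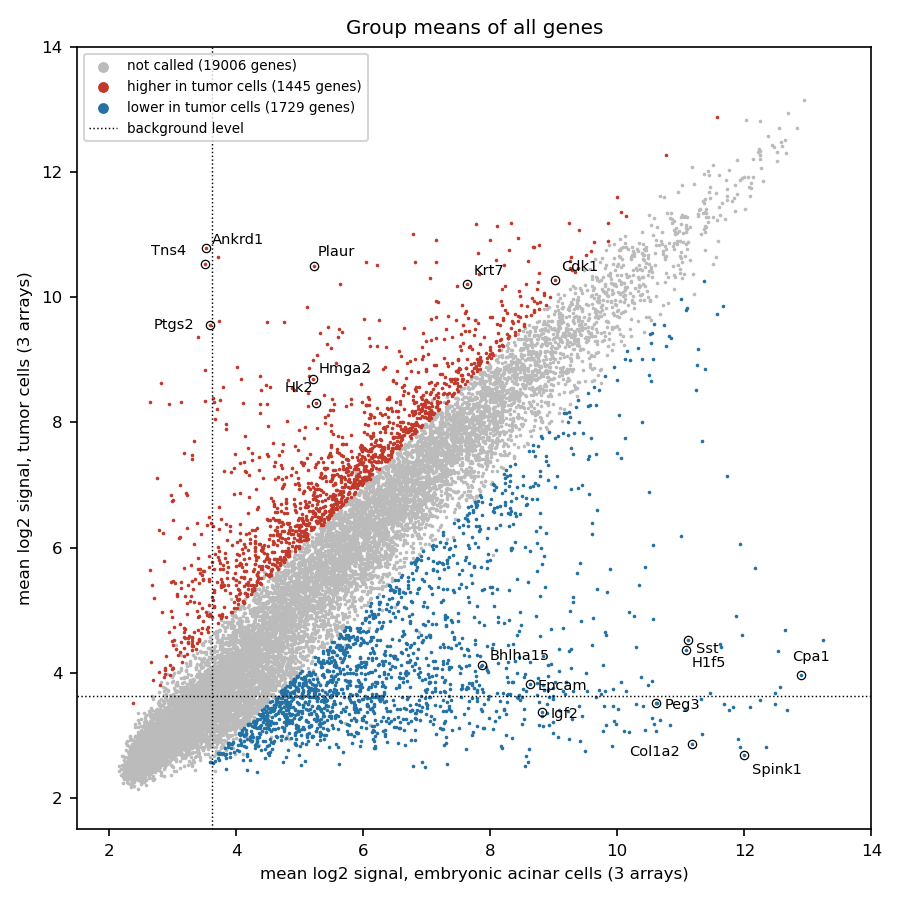
Mean log2 signal of 22180 genes in tumor cells (vertical axis) and embryonic acinar cells (horizontal axis), 3 arrays each, with called genes coloured and the background level of 3.62 dotted. The genes farthest from the diagonal lie at the lower right, where enzyme and matrix genes such as Cpa1, Spink1 and Col1a2 lie at 2 to 4 in tumor cells and at 11 to 13 in embryonic cells.

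The scale of the values bears on the share of calls in each direction. The median of 13 housekeeping genes was 9.61 on tumor arrays and 9.15 on embryonic arrays, a difference of 0.46, while that of 40 ribosomal protein genes differed by -0.07. Centring each array on the housekeeping genes moved the median of all genes to -0.39 and gave 645 higher and 3016 lower genes, so that 17.6% of calls were higher in place of 45.5%. Centring on 4826 genes over 6 in both groups, chosen after seeing the data, gave 795 higher and 2514 lower genes (24.0% higher). Cyclic loess normalization gave 1049 and 1838 (36.3% higher). Calls on changes of little more than 1 log2 unit can depend on this choice.

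**Figure D2:**
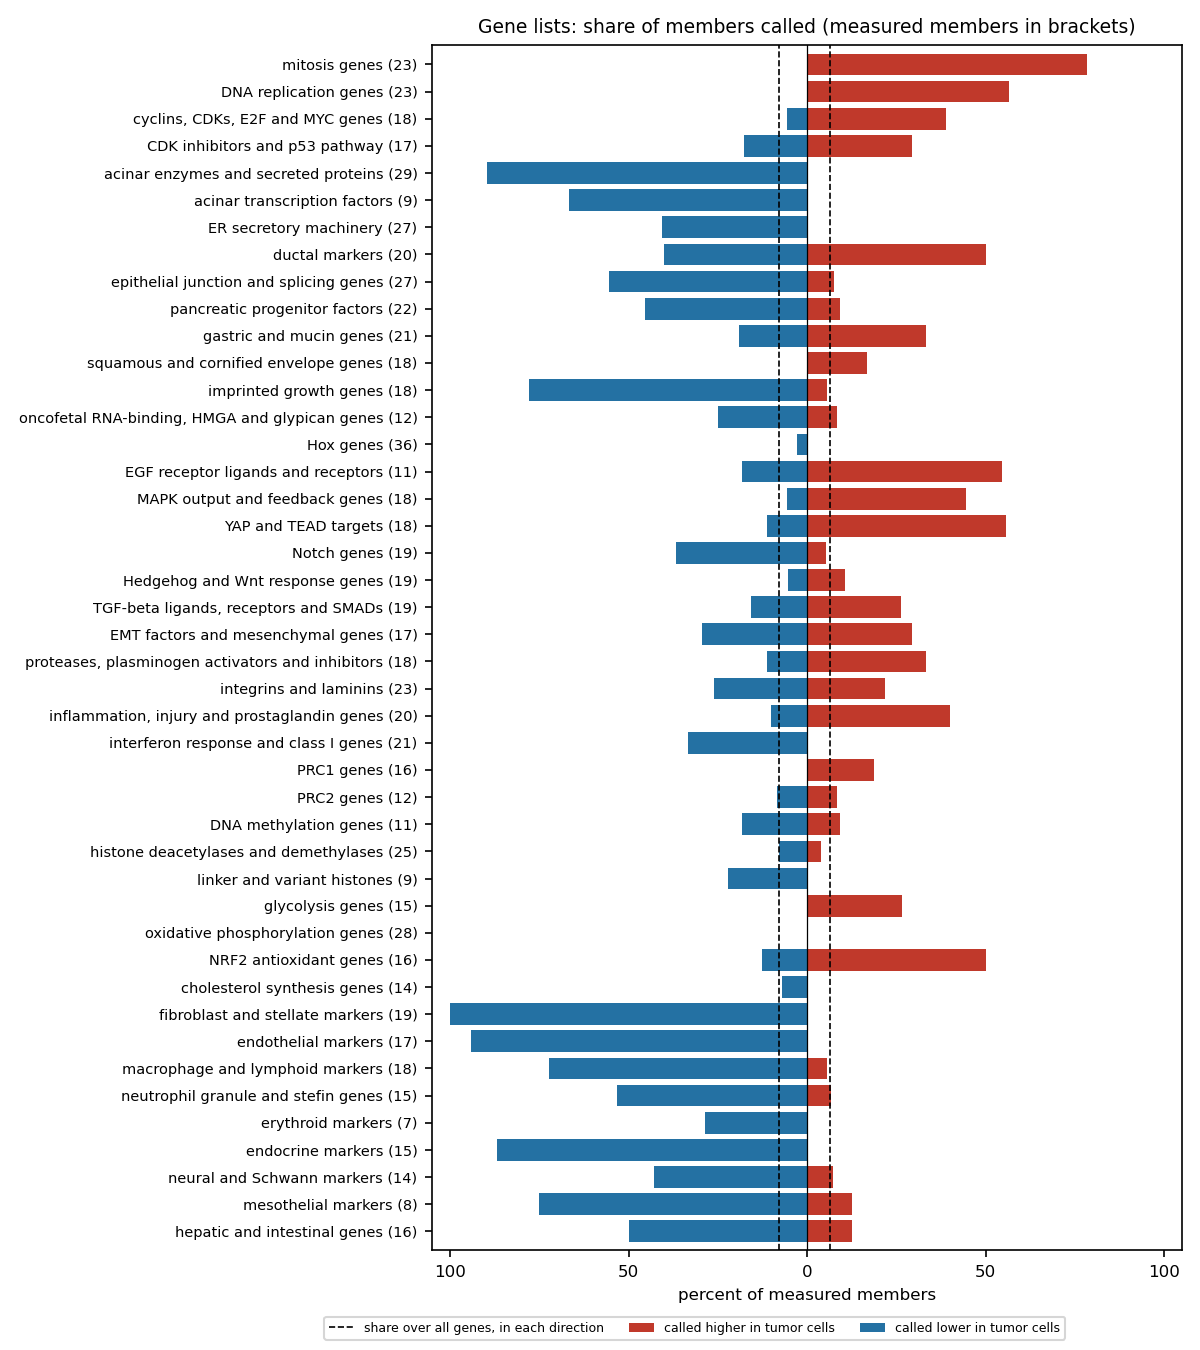
Share of the measured members of each gene list called higher (bars to the right) or lower (bars to the left) in tumor cells than in embryonic acinar cells, with the share over all genes dashed (6.51% higher, 7.8% lower). Mitosis and replication genes lie to the right, and acinar, imprinted, fibroblast, endothelial and endocrine genes to the left.

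Cell cycle genes that were already active in embryonic acinar cells stood higher still in tumor cells. Of 23 mitosis genes, all above background in both groups, 18 were called higher and 0 lower, against 6.51% higher over all genes, with a median difference of 1.25 and 23 of 23 positive. Of 23 DNA replication genes, 13 were called higher and 0 lower, with a median of 1.08. The kinase gene Cdk1, which drives entry into mitosis, stood at 9.56, 10.59 and 10.70 in tumor cells and at 9.19, 9.08 and 8.79 in embryonic cells. The tumor arrays of Cdk1 lay above the embryonic ones, at 1.26 ± 0.36 (adjusted p = 0.0174), and the call was lost under 7 of 17 alternatives. The larger changes were in Kif23, a kinesin of cytokinesis, which stood at 8.08, 9.31 and 9.80 in tumor cells and 6.78, 7.01 and 7.05 in embryonic cells (2.12 ± 0.34, adjusted p = 0.000421). The checkpoint kinase gene Bub1 differed by 1.79 ± 0.32 and the spindle kinase gene Aurka by 1.76 ± 0.43. The topoisomerase gene Top2a did not pass, at 8.41, 9.33 and 9.82 in tumor cells and 8.59, 8.49 and 8.36 in embryonic cells.

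Among replication genes, the helicase component Gins1 stood at 6.83, 7.91 and 7.38 in tumor cells and at 5.55, 5.41 and 5.13 in embryonic cells, a difference of 2.01 ± 0.24 (adjusted p = 2.48e-05). The origin recognition gene Orc1 differed by 1.77 ± 0.35 and the thymidine kinase gene Tk1 by 1.74 ± 0.33. The helicase gene Mcm6, at 8.56, 8.99 and 8.96 against 8.49, 8.23 and 8.39, passed on p alone with a difference of 0.47 ± 0.15 (adjusted p = 0.0398). Thymidylate synthase (Tyms) stood at 6.26, 7.12 and 7.44 in tumor cells and 7.11, 7.05 and 6.52 in embryonic cells, with overlapping arrays.

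The size of this group's change varied between tumor arrays. The median of the mitosis genes was 7.51, 8.70 and 9.04 on tumor replicates 1 to 3 and 7.24, 7.20 and 7.06 on the embryonic arrays. Without tumor replicate 1, 21 mitosis genes were called higher, and without tumor replicate 2, tumor replicate 3 or embryonic replicate 3 the count was 9, 7 and 9. It was 6 under housekeeping centring, 7 under cyclic loess and 7 under bright gene centring. For the replication genes, 17 were called without tumor replicate 1, 8 without tumor replicate 3, 3 under housekeeping centring and 5 under bright gene centring. The direction was steadier than the count, since 22 or 23 of the 23 mitosis genes and 22 or 23 of the 23 replication genes had a positive difference under each of the 17 alternatives.

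**Figure D3:**
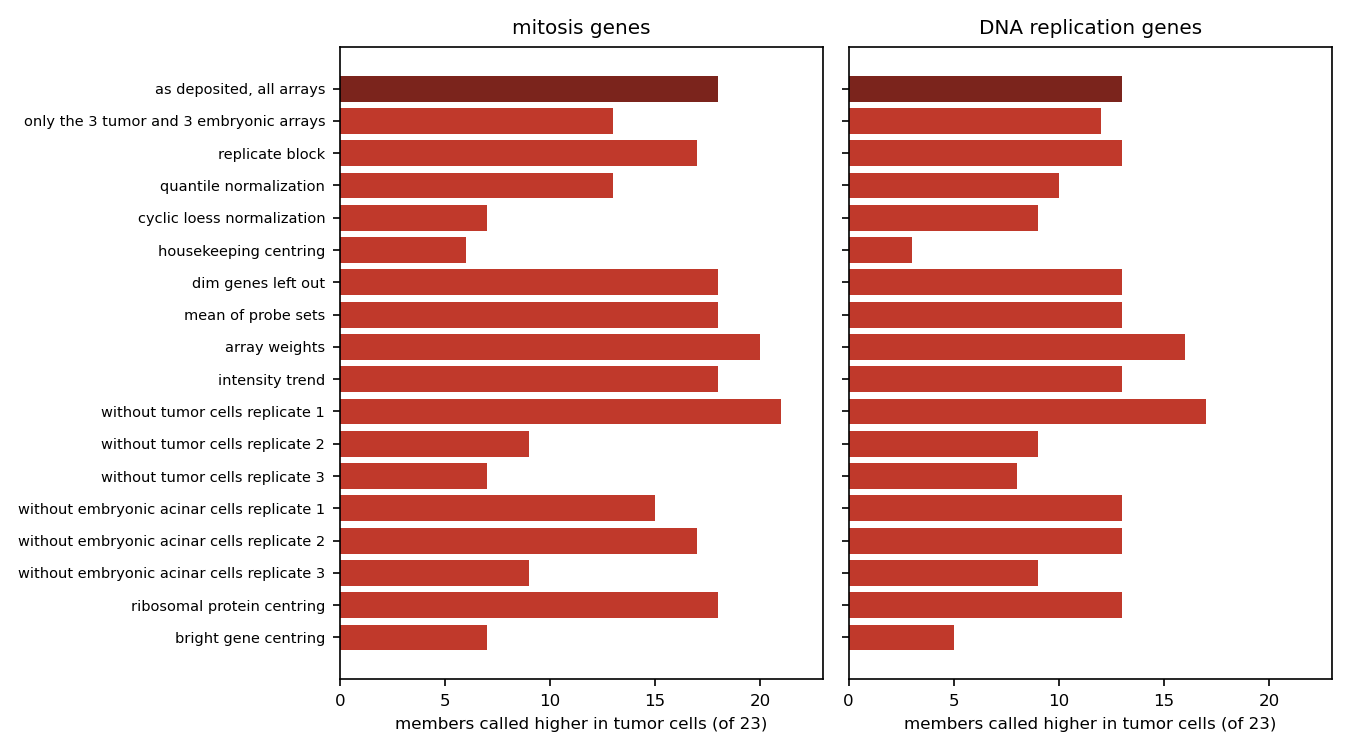
Number of 23 mitosis genes (left) and 23 DNA replication genes (right) called higher in tumor cells under the values as deposited (dark bar, 18 and 13) and under 17 alternatives. Housekeeping centring leaves 6 and 3, and leaving out tumor replicate 1 gives 21 and 17.

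Of 18 genes for cyclins, their kinases, E2F and MYC factors, 7 were called higher and 1 lower, with a median of 0.42. Housekeeping centring turned that balance, with 2 higher, 3 lower and a median of -0.05, and bright gene centring gave 4 higher and 1 lower. Cyclin D1 (Ccnd1), which starts the passage through G1, stood at 10.43, 10.89 and 11.09 in tumor cells and at 8.58, 8.67 and 8.76 in embryonic cells (2.13 ± 0.21, adjusted p = 3.74e-06). Cyclin D3 (Ccnd3) went the other way, at 5.71, 5.96 and 6.37 against 7.39, 7.22 and 7.20 (-1.26 ± 0.17). The groups did not overlap for either cyclin. Myc differed by 1.38 ± 0.17, Cdk6 by 1.35 ± 0.20 and the repressor E2f8 by 1.60 ± 0.31, and Myc and Cdk6 lost their calls under housekeeping centring, at 0.92 and 0.89.

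Of 17 CDK inhibitors and p53 pathway genes, 5 were called higher (29.4%) and 3 lower (17.6%), against 6.51% and 7.8% over all genes. Housekeeping centring left 1 higher and bright gene centring 3, with 3 lower under both. The inhibitor gene Cdkn1c (p57), imprinted and active in embryonic tissue, stood at 3.85, 3.54 and 3.84 in tumor cells and at 7.45, 6.65 and 6.91 in embryonic cells, a difference of -3.26 ± 0.21 (adjusted p = 8.07e-08). Cdkn1a (p21) stood at 10.48, 10.07 and 10.30 against 9.49, 10.17 and 9.37, with overlapping arrays (0.61 ± 0.22, adjusted p = 0.0568). Cdkn2a, the locus of p16 and p19ARF, was near background in both groups, at 3.40, 3.61 and 3.78 in tumor cells and 3.37, 3.39 and 3.62 in embryonic cells. The p53 targets split, with Mdm2 (1.39 ± 0.17) and Phlda3 (1.67 ± 0.36) higher and Sesn1 (-2.09 ± 0.28) lower. Mdm2 lost its call under housekeeping centring, at 0.93.

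The acinar programme was nearly absent from tumor cells. Of 29 enzyme and secreted protein genes, all above background in embryonic cells, 26 were called lower and 0 higher, against 7.8% lower over all genes, with a median difference of -8.19 (-8.06 with values under background raised to that level). Their summed linear signal was between 435 and 507 on the tumor arrays and between 92516 and 124853 on the embryonic arrays. The lipase gene Cel stood at 3.62, 3.71 and 3.18 in tumor cells and at 12.48, 12.40 and 12.58 in embryonic cells, at least 466-fold lower (-8.98 ± 0.18, adjusted p = 4.9e-12). Kallikrein 1 (Klk1) was at least 423-fold lower, the trypsin inhibitor gene Spink1 at least 330-fold, syncollin (Sycn), a zymogen granule protein, at least 529-fold, and the procarboxypeptidase gene Cpb1 at least 318-fold. Cpa1 differed by -8.93 ± 0.18 and the chymotrypsinogen gene Ctrb1 by -8.73 ± 0.27. Close paralogs among the trypsins, chymotrypsins, kallikreins and Reg genes can hybridise to each other's probes. The 3 members not called were Dnase1, Prss3 and Reg2. Reg2 stood at 3.37, 3.03 and 3.09 in tumor cells and at 3.37, 3.84 and 11.11 in embryonic cells, so that 1 embryonic array decided its mean.

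Of 9 acinar transcription factors, 6 were called lower and 0 higher. Ptf1a, the DNA-binding subunit of the PTF1 complex, stood at 3.68, 3.41 and 3.70 in tumor cells and at 8.04, 8.34 and 7.02 in embryonic cells, at least 18.1-fold lower (-4.20 ± 0.36, adjusted p = 1.3e-06). The Ptf1a difference ran from -4.67 to -2.54 over the 17 alternatives, and the call held in each. Its partner Rbpjl stood at 3.87, 4.42 and 4.20 against 8.63, 9.02 and 8.21 (-4.46 ± 0.23). The nuclear receptor gene Nr5a2 stood at 3.84, 3.11 and 3.89 against 8.66, 9.38 and 8.73, at least 39.4-fold lower. The tumor means of Ptf1a and Nr5a2 were under background, and all 3 genes were far above it on every embryonic array. Bhlha15, which scales up the secretory apparatus, differed by -3.74 ± 0.19 and Xbp1 by -1.91 ± 0.26. Gata4 stood at 5.84, 5.66 and 5.74 in tumor cells and 6.12, 6.47 and 6.23 in embryonic cells, and passed on p alone (-0.53 ± 0.18, adjusted p = 0.0416). Mecom stood at 6.98, 6.55 and 6.84 against 6.67, 7.04 and 6.38, with a 95% interval of the difference from -0.42 to 0.61.

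The secretory machinery of the endoplasmic reticulum was lower to a smaller degree. Of 27 genes, 11 were called lower and 0 higher, with a median of -0.88, and 26 had a negative difference. The count was 19 under housekeeping centring and 18 under bright gene centring. Erp27, a gene of the disulfide isomerase family, stood at 3.57, 3.72 and 4.10 in tumor cells and at 10.47, 10.54 and 10.46 in embryonic cells (-6.69 ± 0.40, adjusted p = 3.12e-08). The oxidase gene Ero1b stood at 5.51, 5.28 and 5.07 against 9.50, 9.90 and 10.14 (-4.56 ± 0.20). Both genes are typical of the pancreas, and the groups did not overlap for either. Of 15 endocrine markers, 13 were lower on the same arrays, and their part in the Ero1b difference was not tested. Sel1l, a member of the degradation complex, differed by -2.62 ± 0.20 and the stress protein gene Sdf2l1 by -2.70 ± 0.20. The general chaperone gene Hspa5 (BiP) stood at 9.31, 9.66 and 9.15 in tumor cells and 10.05, 10.16 and 10.08 in embryonic cells, and its difference of -0.72 ± 0.18 was under the fold threshold.

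Ductal markers split between the groups. Of 20, 10 were called higher in tumor cells and 8 lower. Keratin 19 (Krt19) stood at 10.32, 10.48 and 10.31 in tumor cells and at 7.86, 7.65 and 7.96 in embryonic cells (2.55 ± 0.15, adjusted p = 2.28e-08). Keratin 7 (Krt7) stood at 10.12, 10.19 and 10.34 against 7.55, 7.59 and 7.77 (2.58 ± 0.14). Both keratins were higher on every tumor array. The tetraspanin gene Tspan8 was higher by 3.43 ± 0.31. In the other direction, Sox9, a ductal and progenitor factor, stood at 8.04, 5.54 and 6.07 in tumor cells and at 8.26, 8.61 and 8.32 in embryonic cells (-1.85 ± 0.44, adjusted p = 0.0069), with tumor replicate 1 close to the embryonic arrays. Onecut1 (HNF6) differed by -3.13 ± 0.17, Ambp by -3.61 ± 0.33 and Epcam by -4.80 ± 0.16 (adjusted p = 2.29e-10).

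Genes of epithelial junctions and epithelial splicing were mostly lower. Of 27, 15 were called lower and 2 higher, with a median of -1.18, or -0.95 with values under background raised to that level. Claudin 7 (Cldn7) stood at 3.46, 3.99 and 2.73 in tumor cells and at 7.77, 8.09 and 8.41 in embryonic cells, at least 22.1-fold lower. Claudin 6 (Cldn6), a claudin of embryonic epithelia, was at least 19.4-fold lower. Esrp1, a splicing factor of epithelial isoforms, stood at 3.88, 3.40 and 3.30 in tumor cells and at 7.33, 7.43 and 7.19 in embryonic cells, at least 12.9-fold lower (-3.79 ± 0.17, adjusted p = 2.06e-09). The tumor means of these 3 genes lay under the background level, while Cdh1 differed by 0.02 ± 0.18 (95% interval -0.37 to 0.41).

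Of 22 pancreatic progenitor factors, 10 were called lower and 2 higher, with a median of -0.70, or -0.61 with values under background raised to that level. The endocrine progenitor gene Neurog3 stood at 3.85, 3.22 and 3.88 in tumor cells and at 8.50, 8.80 and 8.06 in embryonic cells (-4.80 ± 0.27, adjusted p = 1.66e-08). The islet factor Isl1 was at least 13.2-fold lower and Prox1 at least 8.32-fold. Pdx1, the factor of the early pancreas, stood at 6.55, 6.56 and 6.25 in tumor cells and at 5.25, 5.73 and 5.36 in embryonic cells. The tumor values of Pdx1 were the higher ones on every array, by 1.01 ± 0.19 (adjusted p = 0.0014), just past the fold threshold, and 9 of 17 alternatives left it under that threshold, between 0.54 and 0.96. The progenitor list then had 0 or 1 gene called higher. Of 15 endocrine markers, 13 were lower on the same arrays, and their part in the progenitor count was not tested.

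Genes of the stomach lining were unequal. Of 21 gastric and mucin genes, 7 were called higher and 4 lower, while housekeeping centring gave 6 and 7, and the 6 arrays alone 7 and 2. The trefoil gene Tff1 stood at 9.68, 9.71 and 8.70 in tumor cells and at 3.73, 3.19 and 3.26 in embryonic cells, at least 53.4-fold higher (5.97 ± 0.33, adjusted p = 1.48e-08). The gastric protease gene Ctse stood at 10.59, 8.75 and 9.49 against 4.51, 4.97 and 4.79 (4.85 ± 0.39), and the mucin-type glycosyltransferase gene Gcnt3 was higher by 4.12 ± 0.31. Agr2, a disulfide isomerase of mucus-making cells, went the other way at 3.62, 2.92 and 3.23 against 8.39, 9.08 and 8.15, at least 30.2-fold lower. Muc5ac was under background in both groups, at 3.05, 2.96 and 2.94 and at 2.90, 3.13 and 3.17. Of 18 squamous and cornified envelope genes, 3 were called higher, namely Sprr1a (3.76 ± 0.22), Ivl (at least 5.38-fold) and Perp (1.71 ± 0.17). Sprr1a stood at 11.36, 10.69 and 10.69 in tumor cells and 7.06, 7.47 and 6.93 in embryonic cells, whereas 8 of the 18 were under background in both groups.

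**Figure D4:**
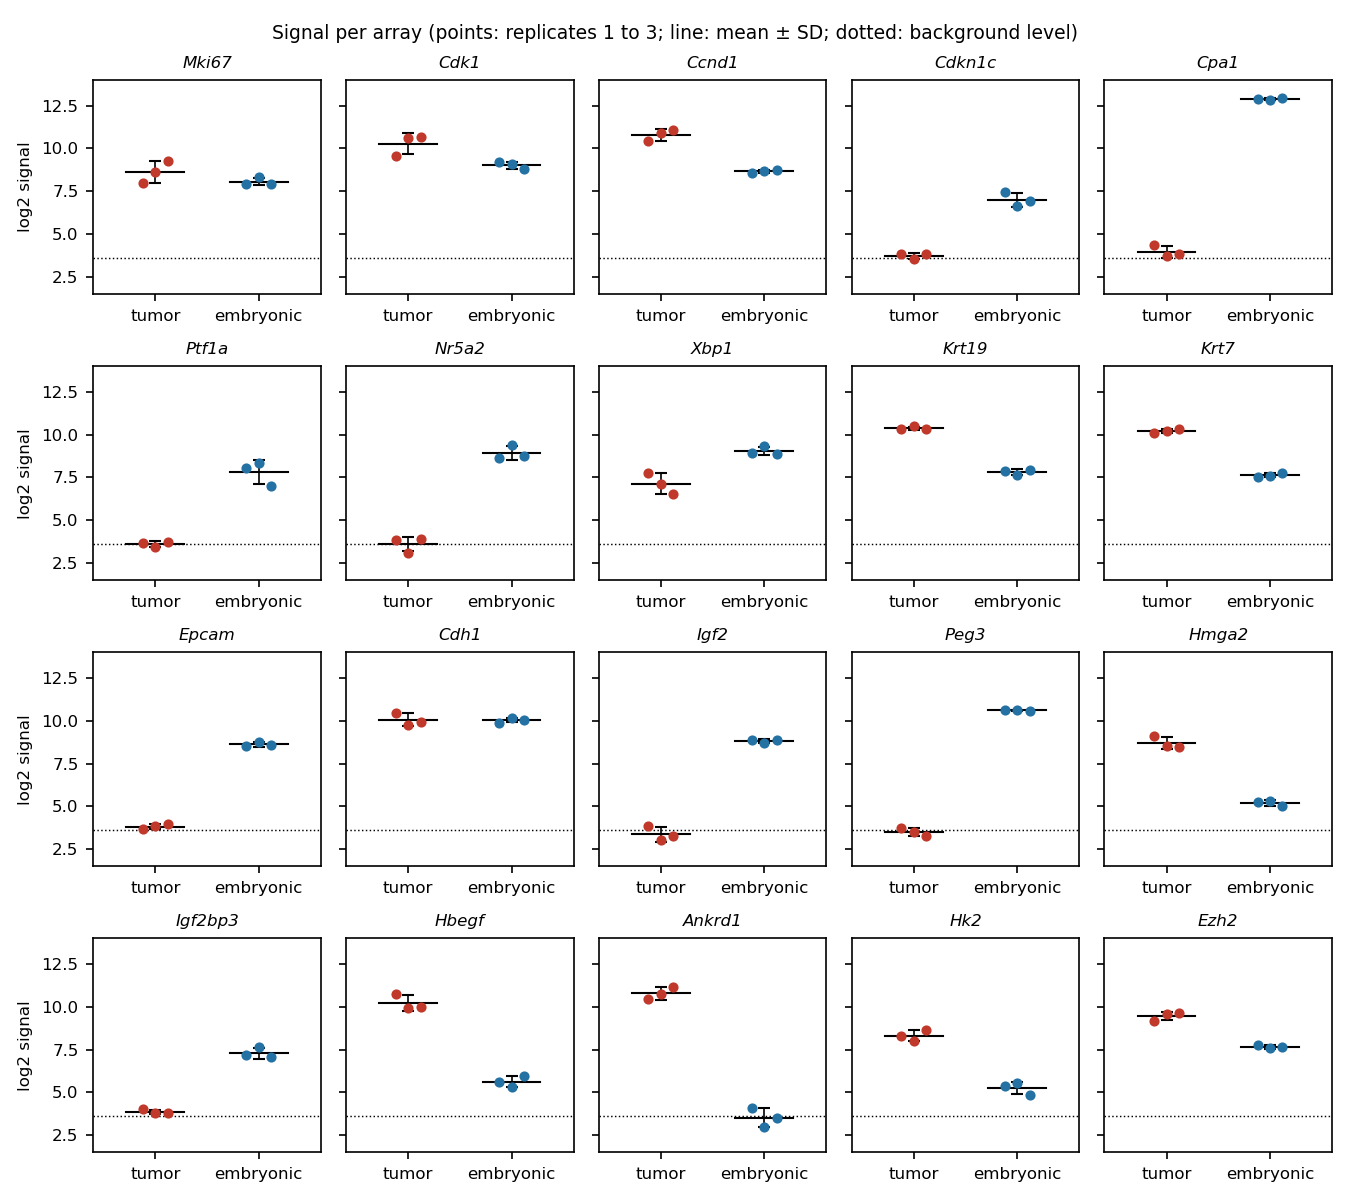
Log2 signal of 20 genes on each of the 3 tumor arrays (red, left) and 3 embryonic arrays (blue, right), with the mean and SD as lines and the background level dotted. Mki67 and Cdh1 overlap between the groups, Cdk1, Ccnd1, Krt19, Hmga2 and Hbegf lie higher in tumor cells, and Cpa1, Ptf1a, Epcam, Igf2 and Peg3 lie near background there.

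Imprinted growth genes, which the embryo uses and most adult tissues shut down, were among the most reduced groups. Of 18, 14 were called lower and 1 higher, with a median of -3.78, and 11 were above background in tumor cells against 17 in embryonic cells. Insulin-like growth factor 2 (Igf2) stood at 3.86, 3.02 and 3.24 in tumor cells and at 8.88, 8.70 and 8.89 in embryonic cells, at least 36.8-fold lower (-5.45 ± 0.19, adjusted p = 3.25e-10). The zinc finger gene Peg3 stood at 3.76, 3.5 and 3.29 against 10.64, 10.60 and 10.59, at least 127-fold lower. Mest stood at 5.60, 5.04 and 4.25 against 10.32, 10.02 and 10.20 (-5.22 ± 0.34). The tumor means of Igf2 and Peg3 were under background, and no tumor array of Mest reached the embryonic range. Plagl1, a transcription factor over other imprinted genes, Grb10, a brake on insulin signalling, and Zim1 were lower as well, Plagl1 at least 31.3-fold, Zim1 at least 41.3-fold and Grb10 by a difference of -5.82 ± 0.16. Connective tissue of the embryo also expresses several imprinted genes. The fibroblast and stellate list was lower for 19 of 19 members, and its part in this result was not tested.

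The oncofetal genes did not move together. Of 12, 1 was called higher (8.33%) and 3 lower, with a median of -0.02. The higher share was near the 6.51% over all genes, and the 3 lower are to be read against 7.8% lower over all genes. The architectural factor Hmga2 stood at 9.11, 8.50 and 8.46 in tumor cells and at 5.25, 5.34 and 5.03 in embryonic cells (3.48 ± 0.23, adjusted p = 7.9e-08). The RNA-binding protein gene Igf2bp3 stood at 4.01, 3.80 and 3.83 against 7.17, 7.65 and 7.06 (-3.41 ± 0.20). Hmga2 and Igf2bp3, both familiar as fetal genes that tumors take up again, thus went opposite ways between these cells. The glypican gene Gpc3 was at least 71.2-fold lower. Alpha-fetoprotein (Afp) stood at 3.53, 3.54 and 3.08 in tumor cells and at 4.51, 9.97 and 4.63 in embryonic cells, with embryonic replicate 2 far above the other embryonic arrays. Without that array the difference was -1.19, in place of -2.99, and the call held. The Afp call was lost on the 6 arrays alone, after quantile or cyclic loess normalization, and without any 1 of the tumor arrays. The lower count of the oncofetal list was 2 in each of those alternatives. The pluripotency genes Lin28a and Sall4 were near background in both groups, at 3.31 to 3.76 and 3.63 to 3.80 in tumor cells and at 3.24 to 3.82 and 3.66 to 3.72 in embryonic cells. Of 36 Hox genes, 11 were above background in a group, and 1 was called, Hoxa5, at least 3.65-fold lower in tumor cells. That is 2.78% of the list, under the 7.8% called lower over all genes. The Hox count varied, with 7 called lower under housekeeping centring, 6 under bright gene centring, 4 without embryonic replicate 2 and 3 with array weights, and 0 called higher under any alternative.

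Several ligands of the EGF receptor were higher in tumor cells. Of 11 ligands and receptors, 6 were called higher and 2 lower, with a median of 1.70 and a lowest difference of -1.55. The ligand gene Hbegf stood at 10.74, 9.91 and 9.98 in tumor cells and at 5.60, 5.32 and 5.98 in embryonic cells (4.58 ± 0.25, adjusted p = 1.61e-08). Epiregulin (Ereg) stood at 7.99, 8.26 and 7.90 against 3.84, 3.54 and 3.63 (4.38 ± 0.19), and betacellulin (Btc) at 7.74, 6.31 and 6.12 against 4.89, 4.66 and 4.81 (1.94 ± 0.33). The groups did not overlap for any of these 3 ligands. The receptor gene Egfr stood at 7.87, 8.07 and 8.27 in tumor cells and 6.30, 5.93 and 6.09 in embryonic cells (1.96 ± 0.22, adjusted p = 1.34e-05). Erbb2 differed by 0.96 ± 0.20, under the fold threshold.

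Of 18 genes that report or restrain MAPK signalling, 8 were called higher and 1 lower, with a median of 0.98. The early response gene Ier3 stood at 11.42, 10.63 and 10.96 in tumor cells and at 6.87, 6.81 and 6.69 in embryonic cells (4.21 ± 0.20, adjusted p = 4.33e-09). The receptor kinase gene Epha2 stood at 8.57, 8.37 and 8.75 against 4.51, 4.46 and 4.61 (4.04 ± 0.17). The phosphatase genes Dusp5 and Dusp4, which switch off ERK, were higher by 2.82 ± 0.24 and 2.48 ± 0.28. Egr1, an immediate early gene, overlapped between the groups, at 11.02, 7.45 and 7.15 in tumor cells and 8.91, 9.12 and 8.44 in embryonic cells.

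Targets of YAP and TEAD were mostly higher as well. Of 18, 10 were called higher and 2 lower, with a median of 1.38 and a lowest difference of -1.84. Ankrd1, the gene with the Ankrd1 promoter printed above, stood at 10.44, 10.75 and 11.18 in tumor cells and at 4.09, 2.98 and 3.51 in embryonic cells, at least 144-fold higher (7.26 ± 0.26, adjusted p = 3.5e-10). Connective tissue growth factor (Ccn2) stood at 10.58, 10.05 and 10.29 against 7.12, 6.84 and 7.21 (3.25 ± 0.27), and Ccn1 at 11.34, 9.89 and 10.90 against 8.29, 7.75 and 7.37 (2.91 ± 0.33). These targets were higher on all 3 tumor arrays. The Ccn2 difference ran from 2.08 to 3.38 over the 17 alternatives, with the call kept. The ectonucleotidase gene Nt5e stood at 8.93, 6.73 and 6.38 against 4.06, 3.93 and 4.19 (3.29 ± 0.47).

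Notch genes leaned the other way. Of 19, 7 were called lower and 1 higher, with a median of -0.72. The lower count was 4 after quantile normalization and 10 under housekeeping or bright gene centring, and the higher count 0 to 2. The target gene Hey1 stood at 3.88, 3.44 and 3.33 in tumor cells and at 6.56, 6.20 and 6.33 in embryonic cells, at least 6.68-fold lower (-2.81 ± 0.32, adjusted p = 1.65e-05). Heyl differed by -1.59 ± 0.31, the receptor gene Notch3 by -1.42 ± 0.17 and the glycosyltransferase gene Lfng by -2.16 ± 0.20. Hes1, another target, stood at 9.86, 7.57 and 7.63 in tumor cells and at 7.04, 7.23 and 6.98 in embryonic cells, and did not pass (1.27 ± 0.45, adjusted p = 0.0552). Endothelial cells use several of these genes, and 16 of 17 endothelial markers were lower on the same arrays, with summed signal of 350 to 413 in tumor cells and 3044 to 3180 in embryonic cells. Their part in the Notch count was not tested.

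Of 19 hedgehog and Wnt response genes, 2 were called higher (10.5%), Wnt7b (1.70 ± 0.25) and Dhh (1.57 ± 0.15), and 1 lower (5.26%), Gli3, at least 5.03-fold. These shares were near the 6.51% and 7.8% over all genes, and the median was -0.10. The lower count was 5 under housekeeping centring and 4 under bright gene centring. Among 19 TGF-beta genes, 5 were called higher (26.3%) and 3 lower (15.8%), against the same 6.51% and 7.8%. The activin subunit gene Inhba stood at 8.82, 6.63 and 6.66 in tumor cells and at 4.34, 4.30 and 3.75 in embryonic cells (3.24 ± 0.59, adjusted p = 0.000995). Tgfb1 was higher by 1.78 ± 0.29, whereas the ligand gene Bmp7, at 4.21, 3.70 and 4.13 against 8.10, 8.08 and 7.73, was lower, at -3.96 ± 0.24, as was the co-receptor gene Tgfbr3, at -2.62 ± 0.16. The TGF-beta count was 2 higher under housekeeping centring and 3 under bright gene centring.

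Genes of mesenchymal transition split evenly, with 5 of 17 higher and 5 lower (29.4% each, against 6.51% and 7.8% over all genes). Twist1 stood at 7.81, 7.29 and 7.27 in tumor cells and at 4.55, 4.56 and 4.38 in embryonic cells (2.96 ± 0.30, adjusted p = 6.11e-06). Vimentin (Vim) stood at 12.08, 12.06 and 12.09 against 11.24, 11.00 and 11.29, without overlap, but its difference of 0.90 ± 0.19 was under the fold threshold and reached 1.11 after quantile normalization and 1.00 with probe sets averaged. Zeb1 did not pass, at 6.20, 5.64 and 5.73 in tumor cells and 6.08, 5.46 and 5.95 in embryonic cells. The matrix genes of the list were lower, with Sparc at 5.83, 5.65 and 4.74 against 10.45, 10.20 and 10.39 (-4.94 ± 0.26) and the crosslinking enzyme gene Lox at 3.80, 4.05 and 4.14 against 8.57, 8.19 and 8.52 (-4.43 ± 0.22). Prrx1, a mesenchymal factor, was lower in tumor cells (-2.66 ± 0.33). Sparc, Lox and Prrx1 moved with the fibroblast and stellate list, and the part of that list in their difference was not tested. The list's lower count was 3 after quantile normalization or without embryonic replicate 1, and its higher count was 3 under housekeeping centring.

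Of 18 proteases, plasminogen activators and inhibitors, 6 were called higher (33.3%) and 2 lower (11.1%), and 3 higher under housekeeping centring. Over all genes the shares were 6.51% higher and 7.8% lower. The urokinase receptor gene Plaur stood at 10.45, 10.40 and 10.65 in tumor cells and at 5.52, 5.24 and 4.90 in embryonic cells (5.28 ± 0.19, adjusted p = 3.25e-10). The inhibitor genes Timp1 and Timp3 went opposite ways, Timp1 at 2.53 ± 0.31 and Timp3 at -3.11 ± 0.27. The gelatinase gene Mmp2 stood at 3.54, 3.96 and 3.72 against 8.75, 8.23 and 8.58 (-4.78 ± 0.30). Of 23 integrins and laminins, 5 were called higher (21.7%) and 6 lower (26.1%). The collagen and laminin receptor genes Itga2 and Itga3 were higher by 4.52 ± 0.26 and 4.11 ± 0.23. Itga2 stood at 10.51, 10.49 and 10.70 in tumor cells and 5.89, 6.14 and 6.12 in embryonic cells. The epithelial laminin chain gene Lama5 was higher by 2.28 ± 0.20, and Lama4, a chain of vessel walls, was at least 28.7-fold lower.

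Inflammation and injury genes were higher for 8 of 20 and lower for 2, or 4 under housekeeping or bright gene centring. The neutrophil chemokine gene Cxcl5 stood at 9.31, 11.20 and 11.42 in tumor cells and at 3.61, 3.76 and 3.77 in embryonic cells (6.93 ± 0.40, adjusted p = 2.46e-08). Ptgs2, which makes prostaglandins, stood at 9.07, 9.78 and 9.83 against 3.52, 3.82 and 3.43, at least 61.3-fold higher. The growth factor gene Csf2 was at least 9.32-fold higher, at 7.18, 6.26 and 7.09 against 2.70, 2.89 and 3.35. The Csf2 difference of 3.86 ran from 2.62 to 4.16 over the 17 alternatives, with the call kept. Csf3 stood at 3.19, 7.84 and 8.29 in tumor cells and 2.98, 2.94 and 3.11 in embryonic cells, so that tumor replicate 1 was at the embryonic level. Its call was lost without tumor replicate 2 or 3 and on the 6 arrays alone. Of 21 interferon response and class I genes, 7 were called lower and 0 higher, with a median of -0.71. The immunoproteasome gene Psmb9 stood at 3.76, 3.77 and 3.98 in tumor cells and at 6.25, 5.98 and 6.44 in embryonic cells (-2.39 ± 0.16, adjusted p = 1.15e-07), and Oasl2 was at least 2.93-fold lower. The interferon count was 4 without embryonic replicate 1, 13 under housekeeping centring and 11 under bright gene centring. Of 18 macrophage and lymphoid markers, 13 were lower on the same arrays, and their part in the interferon count was not tested. Their sums were 989 to 1274 in tumor cells and 2333 to 3403 in embryonic cells. The tumor sums include Cd14, the 1 member called higher. The list's median was 3.49, 3.44 and 3.70 on the tumor arrays and 6.02, 5.62 and 6.14 on the embryonic arrays.

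Lists of chromatin regulators had few called members each. Of 16 PRC1 genes, the complex that ubiquitinates histone H2A, 3 were called higher (18.8%, against 6.51% over all genes) and 0 lower. Pcgf5, a subunit of a variant complex, stood at 6.48, 6.58 and 6.59 in tumor cells and at 4.53, 4.72 and 5.01 in embryonic cells (1.80 ± 0.18, adjusted p = 5.89e-06). Yaf2 (1.13 ± 0.24) and Pcgf6 (1.05 ± 0.25) were close to the threshold, and 1 PRC1 gene was called under cyclic loess, housekeeping centring or bright gene centring, or without embryonic replicate 2. The catalytic gene Rnf2 stood at 7.59, 7.57 and 7.67 in tumor cells and 8.07, 7.61 and 7.94 in embryonic cells (-0.26 ± 0.17, 95% interval -0.63 to 0.10). Bmi1 stood at 4.07, 4.42 and 5.04 against 3.51, 3.53 and 4.16, and passed on p alone (0.78 ± 0.26, adjusted p = 0.0381).

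Of 12 PRC2 genes, the complex that methylates lysine 27 of histone H3, 1 was called higher and 1 lower, 8.33% in each direction and so close to the shares over all genes. The methyltransferase gene Ezh2 stood at 9.18, 9.56 and 9.62 in tumor cells and at 7.79, 7.58 and 7.63 in embryonic cells (1.79 ± 0.23, adjusted p = 6.63e-05). The accessory gene Jarid2 stood at 4.37, 4.36 and 4.44 against 5.66, 5.92 and 5.62 (-1.34 ± 0.22). Of 11 DNA methylation genes, Uhrf1 was called higher (1.23 ± 0.22) and Dnmt3a (-1.29 ± 0.19) and Tet2 (-1.34 ± 0.30) lower, the lower share being 18.2% against 7.8% over all genes. Uhrf1 lost its call under cyclic loess, housekeeping and bright gene centring, and the lower count was 5 under housekeeping and 4 under bright gene centring. Uhrf1, a partner of the maintenance methyltransferase, is itself a gene of dividing cells. Of 25 histone deacetylases and demethylases, 1 was called higher, Hdac7 (1.04 ± 0.27), and 2 lower, Kdm4c (-1.22 ± 0.15) and Kdm7a (-1.15 ± 0.37). These shares, 4.0% and 8.0%, were near the background of all genes. Hdac7 lost its call under 7 of 17 alternatives, with a lowest difference of 0.57, and Kdm7a under 6, among them leaving out any embryonic array, tumor replicate 2 or tumor replicate 3. The list's lower count was 1 to 5 over the alternatives and its higher count 0 or 1, and Hdac1 differed by 0.12 ± 0.29. Of 9 linker and variant histone genes, 2 were called lower (22.2%) and 0 higher. The linker histone gene H1f5 stood at 3.47, 4.93 and 4.67 in tumor cells and at 11.23, 11.22 and 10.78 in embryonic cells (-6.72 ± 0.43, adjusted p = 7.49e-08), the widest gap in that list. That gap stood opposite to the mitosis and replication genes, which were higher in tumor cells.

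Of 15 glycolysis genes, 4 were called higher (26.7%, against 6.51% over all genes) and 0 lower, with a median of 0.61. Hexokinase 2 (Hk2) stood at 8.27, 8.02 and 8.65 in tumor cells and at 5.35, 5.56 and 4.85 in embryonic cells (3.06 ± 0.25, adjusted p = 8.76e-07). Pyruvate kinase (Pkm) stood at 11.14, 10.98 and 11.12 against 9.29, 9.40 and 9.49 (1.69 ± 0.15), and the lactate carrier gene Slc16a1 was higher by 1.87 ± 0.22. Hk1 was higher by 1.25 ± 0.22 and lost its call under housekeeping and bright gene centring. Of 28 nuclear genes for oxidative phosphorylation, 0 were called. In limma's test 10 stood at an unadjusted p under 0.05 and 5 at an adjusted p under 0.05, all under the fold threshold. The median was -0.04, with differences between -0.56 and 0.40. Housekeeping centring called 2 of these genes lower. Of 14 cholesterol synthesis genes, 1 was called, Insig1, lower in tumor cells (-1.55 ± 0.37), a share of 7.14% against 7.8% over all genes.

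Targets of the antioxidant factor NRF2 were higher for 8 of 16 and lower for 2, with a median of 1.01. The reductase gene Akr1b8 stood at 7.14, 7.61 and 7.49 in tumor cells and at 3.76, 2.63 and 3.53 in embryonic cells, at least 13.8-fold higher (4.11 ± 0.31, adjusted p = 3.25e-07). The cystine importer gene Slc7a11 stood at 9.29, 8.73 and 8.20 against 4.06, 5.93 and 5.46 (3.59 ± 0.46). Malic enzyme (Me1) and the glutathione transferase gene Gsta4 were higher by 2.57 ± 0.25 and 2.52 ± 0.23. A common reporter of the pathway, Nqo1, stood at 3.74, 4.42 and 3.79 in tumor cells and at 4.62, 3.99 and 4.67 in embryonic cells and did not pass.

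Beyond the lists, the genes with the largest increases included several that are known from other cells. Tns4, a focal adhesion protein, stood at 10.84, 10.32 and 10.45 in tumor cells and at 3.51, 3.81 and 3.21 in embryonic cells, at least 121-fold higher. The mast cell protease genes Mcpt8 and Mcpt2 stood at 9.40, 9.90 and 9.58 and at 8.10, 8.84 and 7.95 in tumor cells, against 3.84, 3.74 and 3.62 and against 2.80, 2.90 and 3.11 in embryonic cells. The lymphocyte receptor gene Tigit (at least 32.1-fold) and the eosinophil cytokine receptor gene Il5ra (at least 26.1-fold) were likewise higher. A mast cell, a T cell and a pan-leukocyte gene, picked after these values were seen, were called lower in tumor cells, and other markers of basophils and eosinophils were not examined. The mast cell gene Cpa3 stood at 3.22, 3.21 and 3.08 in tumor cells and at 9.02, 8.41 and 8.87 in embryonic cells, the T cell gene Cd3e at 3.45, 3.80 and 3.76 and at 5.64, 5.45 and 4.02, and the pan-leukocyte gene Ptprc at 2.95, 2.87 and 3.05 and at 5.33, 4.22 and 4.79. Pbp2 was at least 37.3-fold higher, and the endotoxin co-receptor gene Cd14 stood at 9.93, 9.37 and 9.53 in tumor cells and 4.67, 4.12 and 4.65 in embryonic cells (5.13 ± 0.26). Cd14 is a leukocyte gene too, so the picked genes do not stand for all of them. Another, Cd53, was far higher on tumor replicate 1 than on the other tumor arrays, as given above.

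Markers of other cells were lower in tumor cells across most lists, with the tumor arrays close to background. Of 19 fibroblast and stellate markers, 19 were called lower, with Col1a2 at 3.13, 2.87 and 2.58 in tumor cells and at 11.42, 10.85 and 11.25 in embryonic cells, at least 187-fold lower. The Col1a2 difference of -8.31 ran from -8.78 to -6.49 over the 17 alternatives. Decorin (Dcn) was at least 148-fold lower, periostin (Postn) at least 103-fold and lumican (Lum) at least 58.6-fold. Of 17 endothelial markers, 16 were lower and 0 higher. The cadherin gene of endothelium, Cdh5, stood at 3.79, 3.84 and 3.93 against 10.05, 10.05 and 10.07 (-6.20 ± 0.17), and Emcn was at least 29.4-fold lower. Of 15 endocrine markers, 13 were lower and 0 higher. Somatostatin (Sst) stood at 3.90, 5.09 and 4.56 in tumor cells and at 11.23, 10.87 and 11.23 in embryonic cells (-6.59 ± 0.27), chromogranin B (Chgb) was at least 84.1-fold lower and ghrelin (Ghrl) at least 71.8-fold.

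Of 18 macrophage and lymphoid markers, 13 were lower and 1 higher, Cd14. The lysozyme gene Lyz2 stood at 3.19, 3.24 and 4.42 in tumor cells and at 9.90, 9.37 and 9.71 in embryonic cells, at least 65.6-fold lower, and the adaptor gene Tyrobp at least 48.7-fold. Of 15 neutrophil granule and stefin genes, 8 were lower and 1 higher (6.67%, near the 6.51% over all genes). S100a8 was at least 82.3-fold lower, at 3.12, 3.58 and 2.85 against 10.49, 9.85 and 9.62, and Stfa1 at least 129-fold. Of 14 neural and Schwann markers, 6 were lower and 1 higher (7.14%, again near that share). The growth cone gene Stmn2 was at least 13.3-fold lower and Gap43 differed by -3.63 ± 0.21, while Ncam1, at 7.00, 7.89 and 8.67 in tumor cells and 6.36, 6.22 and 6.23 in embryonic cells, was higher by 1.58 ± 0.39. Of 8 mesothelial markers, 6 were lower and 1 higher. The exception was mesothelin (Msln), an antigen of pancreatic tumors too, at 10.57, 10.61 and 10.37 against 6.71, 5.58 and 6.38 (4.29 ± 0.23, adjusted p = 1.33e-08). Of 7 erythroid markers, 2 were lower.

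Of 16 hepatic and intestinal genes, 8 were lower and 2 higher, and the embryonic arrays disagreed on them. The lipid carrier gene Fabp1 stood at 2.92, 3.18 and 3.06 in tumor cells and at 7.93, 10.91 and 11.73 in embryonic cells, at least 94.8-fold lower, and Fabp2 at 3.31, 3.25 and 2.98 against 8.94, 11.00 and 11.79. Apoa4 stood at 3.49, 3.42 and 3.49 against 6.86, 10.16 and 11.17. The gut adhesion gene Cdh17 was higher, at 8.48, 8.48 and 8.14 in tumor cells and 3.35, 5.53 and 7.63 in embryonic cells (2.86 ± 0.70). The spread among embryonic arrays was several log2 units for each of these genes, wider than among the 3 tumor arrays.

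**Figure D5:**
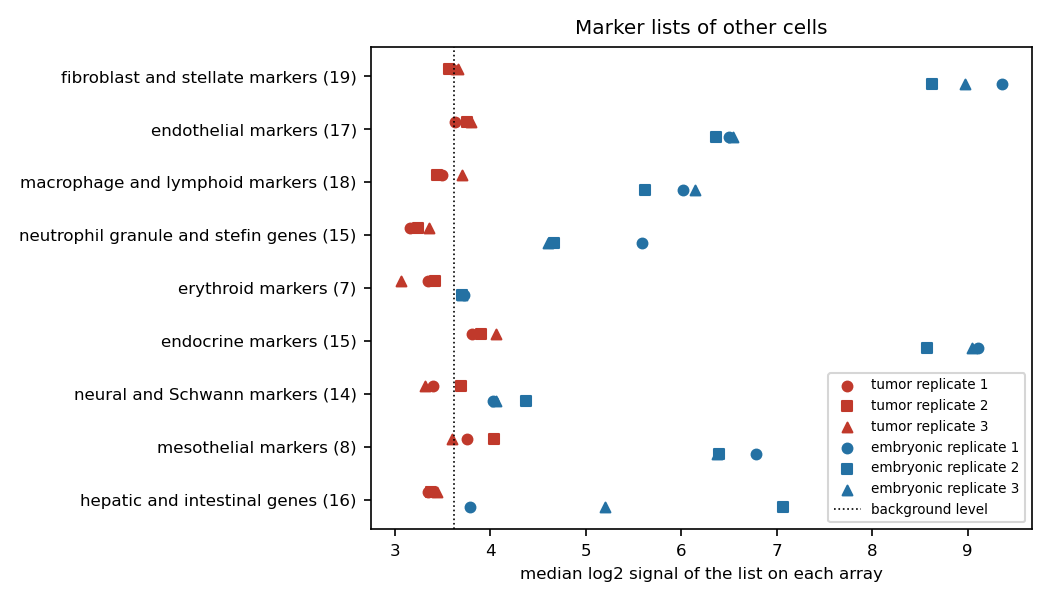
Median log2 signal of 9 marker lists of other cells on each of the 3 tumor arrays (red) and 3 embryonic arrays (blue), with the number of measured members in brackets and the background level of 3.62 dotted. The tumor medians lie between 3.07 and 4.06, and the embryonic medians of fibroblast and endocrine markers lie above 8.5.

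Some probe sets read genes of microRNAs, that is the gene or its precursor and not the mature RNA. Of 483 microRNA genes, 6 were called higher and 6 lower, 1.24% in each direction. Of 43 between Dlk1 and Dio3, the imprinted domain on chromosome 12 in which the lower gene Meg3 (-3.19 ± 0.22) lies, 4 were called lower (9.3%) and 0 higher. That 9.3% was close to the 7.8% called lower over all genes. Of the 43, 15 were above background in a group, against 118 of the 483. Mir453 in that domain stood at 2.50, 2.53 and 2.57 in tumor cells and at 6.74, 4.91 and 5.22 in embryonic cells, and Mir31 on chromosome 4 at 6.04, 4.64 and 4.27 against 3.46, 3.07 and 3.62. Their mature sequences in RefSeq, shown because they are the called microRNA genes described here, have the seed (bases 2 to 8) in capitals.
miR-453: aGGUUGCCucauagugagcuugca
miR-31-5p: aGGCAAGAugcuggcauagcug
The seeds differ. Mir453 was at least 4-fold lower and Mir31 at least 2.57-fold higher in tumor cells.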

How the data were processed

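RNA from 12 mouse samples was measured on Affymetrix arrays, and 6 of these arrays make up the comparison. The authors deposited processed log2 values with 2 decimals, between 1.56 and 13.67. Base 2 was read from that range, and software, background correction and normalization are not given in the sources used here. Of 41345 probe sets, 23521 carried 1 symbol in the platform annotation, 1814 several and 16010 none.

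All 12 arrays were fitted with a mean per group in limma 3.58.1 (R 4.3.3, lmFit and eBayes), with 8 residual and 5.02 prior degrees of freedom. Tests were two-sided, with Benjamini-Hochberg adjustment over 22180 genes. The SE uses the spread of all 4 groups. The step was tested on simulated data. Gene counts and medians over 45 lists (896 entries, 812 measured) are descriptions, and no list was tested.

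The members, lists and genes were chosen with earlier results of these data known. Named genes were a set list, the 12 most raised and 12 most reduced called genes without overlap (predicted, clone-named and sensory receptor genes left out), and up to 4 called members per list. Alb, Ccnd3, Cd3e, Cd53, Cdh17, Clca3b, Cpa3, Dnase1, Egr1, Erbb2, Fos, Gata4, Hdac1, Hes1, Hspa5, Krt8, Lin28a, Mecom, Meg3, Mir31, Mir453, Muc5ac, Nqo1, Prss3, Ptprc, Reg2, Sall4, Top2a, Tyms, Xbp1 and Zeb1 were picked after their values were seen. Alternatives were another normalization or centring, a replicate block, array weights, an intensity trend, a filter on dim genes, averaged probe sets, the 6 arrays alone and leaving out each array. The number of arrays limits the precision.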

Additional observations from a re-analysis of the deposited data

How the results depend on the processing

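The fit was repeated under 17 alternatives, 15 planned and 2 added after seeing the data. Housekeeping centring gave 645 genes higher and 3016 lower in tumor cells, and bright gene centring 795 higher and 2514 lower, against 1445 and 1729 as deposited. Elsewhere counts stayed within 1.5 times. Leaving out single arrays gave 1294 to 1728 higher and 1622 to 1819 lower. A replicate block gave 1441 and 1729. Deviations of same-numbered tumor and embryonic arrays correlated at -0.048, 0.010 and -0.018. Such values show no shared deviation but cannot tell whether samples were paired, since the labels do not say what a replicate number means. Of 176 named called genes, 159 kept the call in every alternative and 17 lost it in at least 1, 12 of them under housekeeping centring, and 0 turned round. Many of the named genes were picked for a large difference, so these counts do not describe the calls over all genes. The cause of the scale difference was not tested. Genes at background have no order.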
